A study of Drosophila melanogaster with 6 samples.

Results

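The genes described here encode 9 transporters and enzymes of eye pigment formation, w, st, bw, v, cn, ry, pr, se and Pu, out of 16508 genes in each table. They were picked by gene symbol and set around w, whose level by labelled genotype was already known, so the comparison of the labelled genotypes counts as used in the choice and is given for these 9 genes as a description without a test. Polyadenylated RNA came from whole larvae at instar 3, 40 larvae per library, with 3 libraries labelled wild-type (the Oregon strain) and 3 labelled crol-KO. In the crol-KO line, the gene of the zinc finger protein Crol was replaced with a DsRed marker by CRISPR in a stock described as mutant for y, w and DNAlig4 that expressed Cas9 from the Actin5C promoter. The flies were then crossed with a y and w mutant stock, and the deletion was kept over a CyO balancer that carries a w+ transgene with Tb. The zygosity of the sequenced larvae and the number of independent lines were not given in the sources used here.

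Drosophila eyes are coloured by brown ommochromes, made from tryptophan, and red pteridines, made from GTP. The product of w pairs with that of st to carry ommochrome precursors and with that of bw to carry pteridine precursors into pigment granules. In larvae the eye itself is not yet pigmented. Several of these genes are known to act in the Malpighian tubules and fat body, and the pteridine route also makes tetrahydrobiopterin, a cofactor of amino acid hydroxylases.

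The libraries held between 23637969 and 49236787 expected counts. The genotype of each came from its deposited title and genotype field, while the table of each library carries the other genotype in its name. The conflict was not resolved here, and all directions below would turn if those names held. The target gene crol had between 60.6 and 73.2 normalized CPM (counts scaled to the same library size) in the wild-type-labelled libraries, against between 37.0 and 42.8 in the crol-KO-labelled ones (edgeR adjusted p = 0.0043). Its log2 fold change of -0.73 became -0.14 once the trend over transcript length was removed (edgeR adjusted p = 0.63). Of the 11 markers of the adult photoreceptor, only Rh3 had at most 3 counts in every library, while norpA had between 105 and 818. The 11 markers summed to between 4.35 and 8.20 TPM (transcript abundance scaled per library). The 6 fat body markers summed to between 38123 and 42528 TPM in the wild-type-labelled libraries, against between 23387 and 26116 in the crol-KO-labelled ones. Most genes were lower in TPM in the crol-KO-labelled libraries (given below), and 3 of the 6 markers had positive edgeR log2 fold changes. The part of the fat body in the levels of the pigment genes was not tested.

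The w transcript stood apart from all other pigment genes. It had 0.817, 0.623 and 0.561 normalized CPM in the wild-type-labelled libraries (replicates 1, 2 and 3) and 15.2, 16.6 and 17.9 in the crol-KO-labelled ones. Every crol-KO-labelled library lay far above every wild-type-labelled library, and the spread within each group was small beside the gap. The means were 0.667 ± 0.134 and 16.6 ± 1.33 CPM (SD, n = 3 each), 24.8-fold higher in the crol-KO-labelled libraries, with a log2 fold change of 4.63 (standard error 0.181). The counts behind these values were 28, 31 and 20 against 592, 636 and 361. In TPM, which takes the length of the transcript into account, w had 0.39, 0.36 and 0.23 against 5.25, 4.39 and 5.44. The stocks in which the knockout was made are described as w mutant, and Oregon is a strain with red eyes. From these descriptions alone, w would be higher under the wild-type label, the reverse of the values. The CyO balancer of the knockout line carries a w+ transgene, however, and the zygosity of the larvae was not given. The part of this transgene or of exchanged labels in the level of w was not tested. The crol transcript was lower in the crol-KO-labelled libraries (log2 fold change -0.73, or -0.14 with the trend over transcript length removed). Neither group lacked it, with between 747 and 1664 counts of crol in the crol-KO-labelled libraries. These counts are for the whole gene, so reads of the deleted part and of crol sequence left in the line cannot be told apart. For the knockout, the paper reports less Crol protein by Western blot of larval brains and imaginal discs. Of the other loci at which the stocks are described as mutant, y had between 0.380 and 0.809 CPM and DNAlig4 between 4.09 and 6.30 CPM over the 6 libraries, and in both the groups overlapped.

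**Figure D1:**
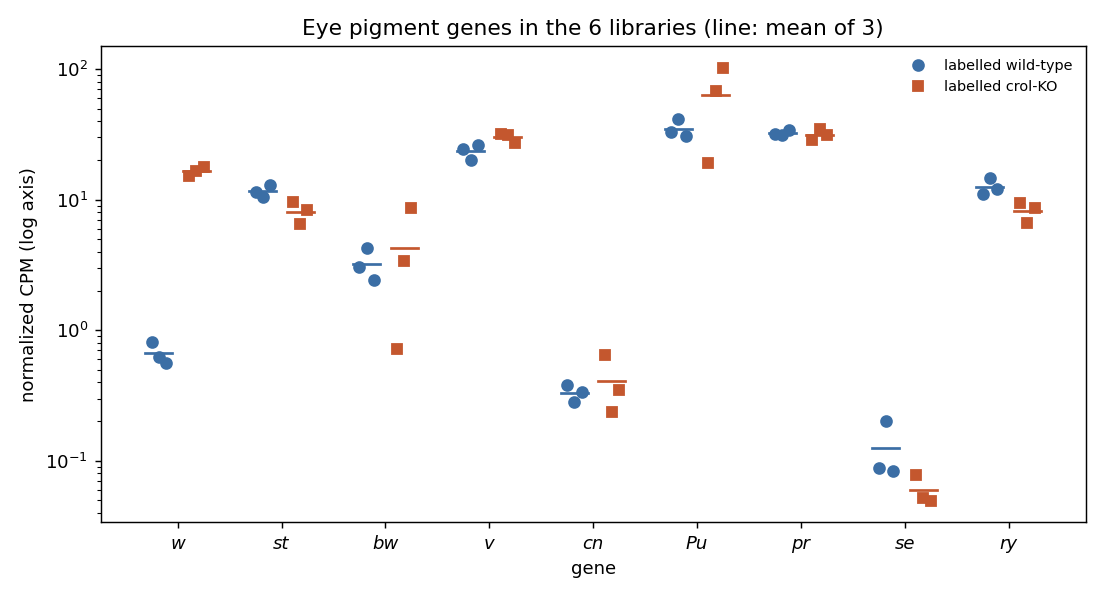
Normalized CPM (log axis) of the 9 genes in each library, with circles for wild-type-labelled libraries, squares for the crol-KO-labelled ones and a line at the mean of 3. The w values form separate clusters near 0.667 and 16.6 CPM, while the other genes lie close together or overlap, with the widest spread in bw and Pu.

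The whole of w lies inside kirre, a cell adhesion gene on the opposite strand (Release 6 annotation). The library kit marks strand, but whether the counting used it is not given in the sources used here, so reads of kirre in w cannot be told apart. kirre had 3.24, 4.06 and 1.96 CPM in the wild-type-labelled libraries, against 2.26, 1.80 and 1.59 in the crol-KO-labelled ones. The part of kirre reads in the counts of w was not tested. As a description, the 3 genes nearest to w in their pattern over the 6 libraries were CG7916, CG34430 and CG3264. The measure was the root mean square difference of log2 CPM, each gene centred on its own mean, among genes averaging 1 CPM or more. It was 0.17 for CG7916, 0.21 for CG34430 and 0.31 for CG3264, whose log2 fold changes were 4.93, 4.74 and 4.80.

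The other transporter genes did not follow w. The st gene, whose product forms the ommochrome transporter with that of w, had 11.4, 10.4 and 13.0 CPM in the wild-type-labelled libraries, against 9.54, 6.50 and 8.32 in the crol-KO-labelled ones. Its groups did not overlap, with st lower in the crol-KO-labelled libraries, the opposite direction to w. The log2 fold change was -0.51 (standard error 0.170). The bw gene, whose product forms the pteridine transporter with that of w, had 3.04, 4.26 and 2.41 CPM in the wild-type-labelled libraries, against 0.720, 3.37 and 8.62 in the crol-KO-labelled ones. The lowest and the highest value of bw were both in the crol-KO-labelled libraries, and the log2 fold change of 0.34 had a standard error of 0.698. Its sign rested on a single library: without replicate 3 labelled crol-KO the log2 fold change was -0.67, and without replicate 1 it was 0.86.

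Within a library, the transporter genes can be set against each other in TPM. The ratio of w to st was between 0.0395 and 0.0653 in the wild-type-labelled libraries, against between 1.45 and 2.32 in the crol-KO-labelled ones. The transcript of w was therefore far below that of its partner st in one group and above it in the other. The ratio of w to bw was between 0.167 and 0.305 in the wild-type-labelled libraries, against between 2.26 and 22.8 in the crol-KO-labelled ones. The ratio of st to bw, which does not involve w, overlapped between the groups, from 3.08 to 6.94 and from 1.15 to 15.7.

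**Figure D2:**
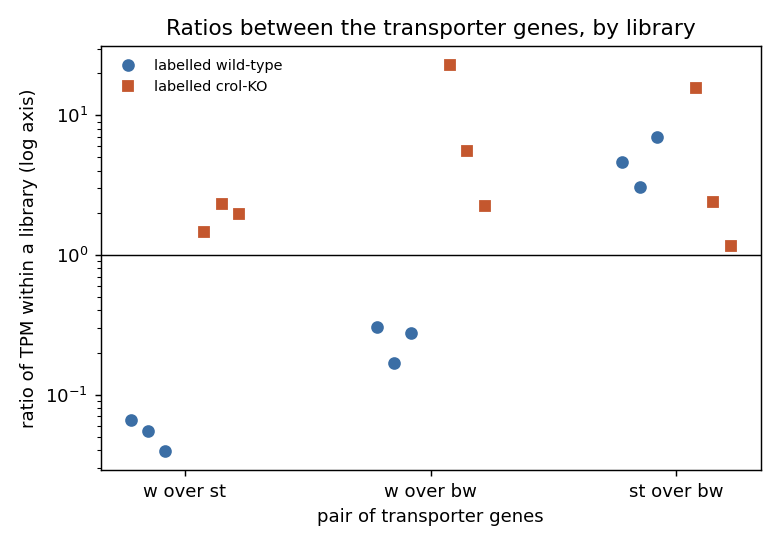
Ratios of TPM between transporter genes within each library (log axis), with circles for wild-type-labelled libraries, squares for the crol-KO-labelled ones and a line at equal levels. The ratio of w to st is at most 0.0653 in the first group and at least 1.45 in the second, and the ratio of st to bw overlaps.

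Of the ommochrome enzymes, v encodes tryptophan dioxygenase, which opens the pathway. It had 24.6, 20.0 and 26.1 CPM in the wild-type-labelled libraries, against 31.9, 31.1 and 27.4 in the crol-KO-labelled ones. The groups did not overlap, although the lowest crol-KO-labelled library was close to the highest labelled wild-type, and the log2 fold change was 0.36 (standard error 0.133). The direction of v depended on the scale. In TPM it had a mean of 21.0 ± 1.03 in the wild-type-labelled libraries, against 17.0 ± 2.92 in the crol-KO-labelled ones (SD, n = 3 each), and these values overlapped. The cn gene encodes kynurenine monooxygenase, which acts later in the same route, and was counted between 7 and 25 times per library. It had 0.380, 0.281 and 0.337 CPM against 0.643, 0.235 and 0.347, and the groups overlapped. Its summed counts were 39 (95% exact Poisson interval 27.7 to 53.3) in the wild-type-labelled libraries, against 41 (29.4 to 55.6) in the crol-KO-labelled ones, intervals that cover counting error only. A difference in cn was not detectable at this depth, and the sign of its log2 fold change, 0.33, turned to -0.23 without replicate 1 labelled crol-KO.

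The transcripts of v and cn differed widely in level although they serve the same route. In TPM, v exceeded cn between 90.3 and 110 times in the wild-type-labelled libraries, against between 70.3 and 190 times in the crol-KO-labelled ones.

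Of the pteridine enzymes, Pu encodes GTP cyclohydrolase, the first step of the route. It had 32.8, 41.7 and 30.7 CPM in the wild-type-labelled libraries, against 19.2, 67.7 and 103 in the crol-KO-labelled ones. As for bw, both the lowest and the highest library were labelled crol-KO, and the highest was 5.36 times the lowest there, against 1.36 times among the wild-type-labelled libraries. The log2 fold change was 0.85 (standard error 0.496). Without replicate 1 labelled crol-KO it was 1.28 (standard error 0.217), past both thresholds of a call, and without replicate 3 it was 0.31.

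The pr gene encodes 6-pyruvoyl-tetrahydropterin synthase, the next enzyme after Pu, and varied little between the libraries in CPM. It had 32.0, 31.2 and 34.0 CPM in the wild-type-labelled libraries, against 28.6, 34.7 and 31.2 in the crol-KO-labelled ones, overlapping groups with a log2 fold change of -0.041 (standard error 0.114). In TPM it was lower in the crol-KO-labelled libraries, with 36.0 ± 4.86 and 21.8 ± 0.777 (SD, n = 3 each) and no overlap. The size of its difference, and whether the groups overlapped, therefore depended on the scale. The ratio of Pu to pr in TPM was between 0.531 and 0.790 in the wild-type-labelled libraries, against 0.396, 1.17 and 1.95 in the crol-KO-labelled ones.

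The se gene encodes an omega-class glutathione transferase that acts on the way to the red drosopterins. It was barely detected in these larvae, with 3, 10 and 3 counts in the wild-type-labelled libraries, against 3, 2 and 1 in the crol-KO-labelled ones, and was left out of the test by the filter on low counts. Its summed counts were 16 (95% exact Poisson interval 9.15 to 26.0) and 6 (2.20 to 13.1), so a difference was not detectable at this depth. In the Release 6 annotation the end of se overlaps GstO2, a paralog on the opposite strand that had between 66.7 and 89.0 CPM, so the few counts of se are uncertain.

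The ry gene encodes xanthine dehydrogenase, which oxidizes purines as well as pteridines. It had 11.2, 14.7 and 12.0 CPM in the wild-type-labelled libraries, against 9.41, 6.66 and 8.62 in the crol-KO-labelled ones. Every crol-KO-labelled library was below every wild-type-labelled library, with a log2 fold change of -0.62 (standard error 0.172). It has the longest transcript of the 9 genes (4337 bases), and once the trend over transcript length was removed its log2 fold change was -0.17.

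**Figure D3:**
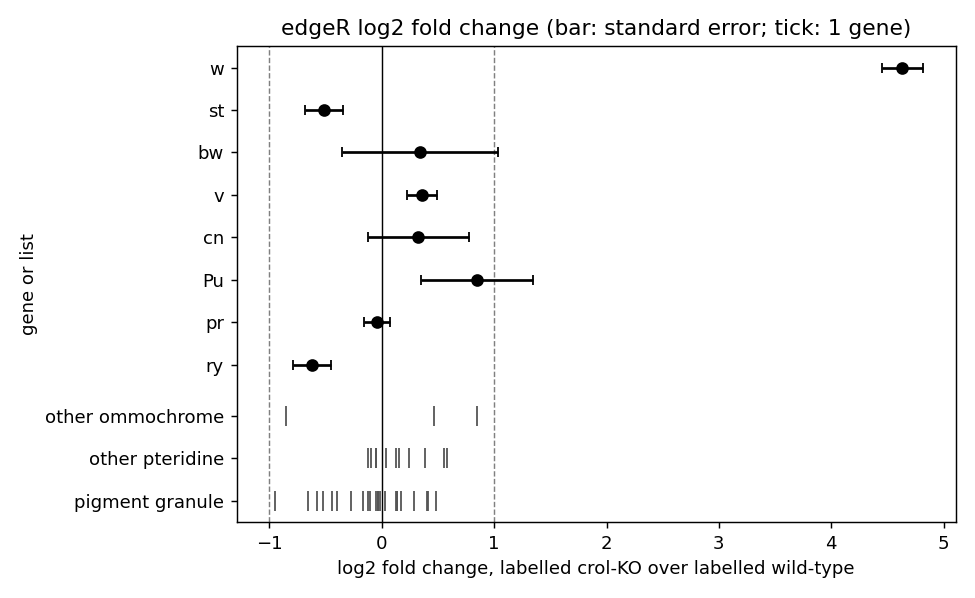
Log2 fold change of labelled crol-KO over labelled wild-type from edgeR for the 8 tested genes (points with standard errors) and for other pigment genes (1 tick per gene), with dashed lines at the fold change threshold. The value of w is 4.63, and all others lie between the dashed lines, from -0.95 to 0.85.

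Over all 12434 tested genes, 1685 (13.6%) were called as different, with adjusted p below 0.05 and log2 fold change beyond 1 in size, of which 746 were higher and 939 lower where the label was crol-KO. The split depended on the scaling: upper-quartile normalization gave 912 higher and 752 lower, and limma on log2(TPM + 1) gave 175 and 1671. Of the 8 tested pigment genes 1, w, was past these thresholds, and it is the gene the list was set around. The groups did not overlap in 4 of the 8 (w, st, v and ry), against 50.2% of all tested genes. The median log2 fold change was 0.33 over the 8 genes and -0.052 over all tested genes.

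In TPM, 7 of the 9 genes had a lower mean in the crol-KO-labelled libraries, all except w and Pu. On this scale most genes shifted the same way, as the median of all tested genes was -0.48 on log2(TPM + 1). Relative to that median, 3 of the 8 tested genes were lower, st (-0.47), ry (-0.38) and pr (-0.21), and 5 were higher, w (2.66), cn (0.43), Pu (0.39), bw (0.21) and v (0.19). These sizes depend on the pseudocount, as adding 1 holds a gene of very low TPM such as cn near no change. With 0.1 added instead, the 8 kept their sides of the median, but bw (0.013) and pr (-0.041) lay almost on it.

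The order of levels is given in TPM, since only this scale compares genes of different length. In the wild-type-labelled libraries the means were 36.0 for pr, 23.6 for Pu, 21.0 for v, 6.14 for st, 3.33 for ry, 1.42 for bw, 0.327 for w, 0.213 for cn and 0.197 for se. The neighbours pr and Pu, Pu and v, w and cn, and cn and se overlapped between libraries, whereas the steps from v to st, ry, bw and w did not. In the crol-KO-labelled libraries, Pu (25.3), pr (21.8) and v (17.0) again led, and w came next at 5.03, above st (2.76), ry (1.36), bw (1.14), cn (0.170) and se (0.0567). There Pu and pr, ry and bw, bw and cn, and cn and se overlapped. The position of w was the main difference between these orders.

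The spread of Pu and bw within the crol-KO-labelled libraries was unusually wide. The SD of log2 CPM there was 1.26 for Pu and 1.81 for bw, larger than in 99.2% and 99.7% of the 10957 genes averaging 1 CPM or more, whose median SD was 0.17. In the wild-type-labelled libraries the SDs of Pu and bw were 0.23 and 0.41. The libraries fell in nearly the same order for both genes: replicate 3 labelled crol-KO was highest, and replicates 1 and 3 labelled wild-type and replicate 1 labelled crol-KO were the last 3 in the same sequence. The ple gene, chosen for display after its values were seen, encodes tyrosine hydroxylase, an enzyme that uses tetrahydrobiopterin. It had 13.7, 62.6 and 17.2 CPM in the wild-type-labelled libraries, against 8.02, 56.0 and 20.1 in the crol-KO-labelled ones. It was highest in replicate 2 of both groups and lowest in replicate 1 of both. The 3 libraries with the highest values were the same for ple, Pu and bw (replicate 2 labelled wild-type and replicates 2 and 3 labelled crol-KO), although ple was not highest in replicate 3 labelled crol-KO, and all were lowest in replicate 1 labelled crol-KO. The age of the larvae within the instar was not given, and its part in this spread was not tested.

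**Figure D4:**
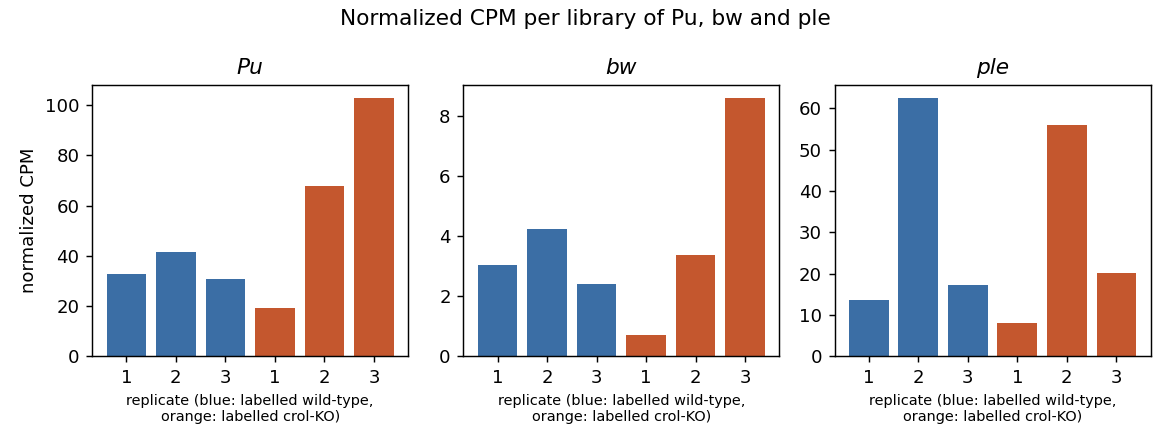
Normalized CPM of Pu, bw and ple in each library, with bars for replicates 1 to 3 labelled wild-type (blue) and labelled crol-KO (orange), each panel from 0. Pu reaches 103 and bw 8.62 CPM in replicate 3 labelled crol-KO and both are lowest in replicate 1, while ple is highest in replicate 2 of both groups.

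Transcript choice could be followed for bw and Pu, the genes with several transcripts in the tables (2 and 3). The abundance-weighted length of bw was between 2646 and 2738 bases in the wild-type-labelled libraries, against between 2498 and 2637 in the crol-KO-labelled ones, without overlap but from only 28 to 212 counts per library. That of Pu stayed between 1734 and 1767 bases. The other 7 genes had 1 transcript each.

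The other genes of the pigment pathways, listed by function, gave no call. Of 38 such genes, 37 were tested, and 0 passed both thresholds in edgeR, against 13.6% of all tested genes, with DESeq2 also calling 0. At an unadjusted p under 0.05 there were 13. At an adjusted p under 0.05 alone, 7 of the 37 passed, 2 higher and 5 lower in the crol-KO-labelled libraries, against 33.1% of all tested genes. These 7 were chosen for naming after their values were seen. KFase, the formamidase that follows v, had 20.5 and 36.9 mean CPM (log2 fold change 0.85, SE 0.197, edgeR adjusted p = 0.015). Kyat, the kynurenine aminotransferase and the most abundant in TPM in the list of other ommochrome genes, had a log2 fold change of 0.46 (edgeR adjusted p = 0.035). The 5 lower genes were kar, a transporter-like gene of ommochrome formation (-0.85), g, the delta subunit of the AP-3 sorting complex (-0.95), ltd, the granule Rab protein (-0.45), Pldn, of the BLOC-1 complex (-0.58), and HPS4, of the BLOC-3 complex (-0.40). All 7 values are before the trend over transcript length was removed.

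Within these lists, the genes did not move as blocks. In the list of other ommochrome genes KFase and Kyat were higher while kar was lower. Here cd, the peroxidase of the last step, was not tested, with means of 0.0690 and 0.0416 CPM. None of the 11 other pteridine genes passed an adjusted p of 0.05, and their log2 fold changes were between -0.12 and 0.58. The most abundant of them, cl, the thioredoxin-like partner of se in drosopterin formation, had 231 and 190 mean TPM and a log2 fold change of 0.38 (edgeR adjusted p = 0.096). Mocs2A and Mocs2B, subunits of molybdopterin synthase, had identical values, so their reads cannot be told apart. The molybdenum cofactor genes mal and cin, whose products ry needs, had log2 fold changes of 0.13 and -0.12. The 23 granule genes had a median of -0.031.

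Beside ry, of 7 tested genes of purine breakdown 1 was called by edgeR and 2 by DESeq2, against 13.6% of all tested genes in edgeR. The median log2 fold change of the 7 was 0.60, with 5 positive. Among them the adenosine deaminase-related genes Adgf-A (0.79), Adgf-C (0.75) and Adgf-D (0.996), named after their values were seen, had edgeR adjusted p = 0.0035, 0.019 and 0.0013 without passing the fold change threshold. Uro, urate oxidase, which acts on the product of ry in the Malpighian tubules, fell from 199 to 87.0 mean CPM (log2 fold change -1.19, SE 0.175, edgeR adjusted p = 0.0024). Uro is also a marker of the Malpighian tubule, where w and ry are known to act. The 7 other markers of that tissue summed to between 55.7 and 69.6 TPM in the wild-type-labelled libraries, against between 27.9 and 43.5 in the crol-KO-labelled ones. None was at or under 3 counts in every library. Most genes were lower in TPM in the crol-KO-labelled libraries, and the median edgeR log2 fold change of the 8 markers, Uro included, was -0.28. Of the 8 markers, 2 were called, against 13.6% of all tested genes. Uro was lower and Oatp58Db higher (log2 fold change 2.89), so the list did not move one way. The part of the tubules in the values of st, ry and w was not tested, and in whole larvae fewer cells of a type and less RNA per cell cannot be told apart.

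The closest paralogs of se and ry did not reach a call. Of 6 tested, 0 passed both thresholds in edgeR and 0 in DESeq2, against 13.6% of all tested genes in edgeR. At an unadjusted p under 0.05 there was 1, GstO1. GstO1, an omega-class glutathione transferase, had a log2 fold change of 0.89 (SE 0.123, edgeR adjusted p = 0.0019). GstO3, the most abundant of them, had 162 and 84.0 mean TPM and a log2 fold change of -0.27 (edgeR adjusted p = 0.17).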

How the data were processed

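Polyadenylated RNA of whole larvae was sequenced by the authors in 6 libraries, 3 per labelled genotype. Per the labels and methods, the authors trimmed reads with Trim Galore 0.6.1, aligned them to dm3 with STAR 2.7.3a and ran RSEM 1.3.2, whose unscaled expected counts for each gene were deposited. The TPM values deposited beside them are scaled to the same total in every library, and the deposited FPKM values were not used. The featureCounts values behind the authors' DESeq2 calls were not used here. Strand settings of the counting are not given in the sources used here.

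After rounding of the expected counts, the 12434 genes that reached 10 counts in 3 or more libraries entered edgeR 4.0.16 under R 4.3.3 (TMM, quasi-likelihood test, Benjamini-Hochberg adjustment over all tested genes). A call needed adjusted p below 0.05 and a log2 fold change beyond 1 in size. The standard error (SE) is the size of the log2 fold change divided by the square root of F. An exact permutation test of 3 libraries against 3 cannot go below p = 0.10. The test was run on simulated counts, with changes well beyond the fold change threshold planted only in genes of many counts. That check does not cover genes of few counts such as cn, or changes near the threshold. Libraries held 23637969 to 49236787 expected counts, and these limit precision for genes of few counts. Alternatives were DESeq2 1.42.0, DESeq2 size factors, upper-quartile normalization, other filters, limma 3.58.1 on TPM (log2 after adding 1 or 0.1), removal of the lowess trend over transcript length (span 0.3), a block for the replicate number, single libraries left out and other thresholds. Symbols were matched to Release 6 records for 99.7% of genes. Coordinates and sequences are not given, since no dm3 genome was used.

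The genes and lists were chosen with earlier results of these data known. Named genes were the 9 pigment genes, crol, y and DNAlig4, every called gene and the most abundant gene of each list of related genes, and the 3 genes nearest to w. Each library is from a separate sample of larvae.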

Additional observations from a re-analysis of the deposited data

How the results depend on the processing

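The log2 fold change of w, given as a description since its level was known when the genes were chosen, was 2.18 with limma on log2(TPM + 1), filtered or not, 3.60 with limma on log2(TPM + 0.1), and between 4.58 and 4.85 when each library was left out. The TPM scale alone lowered it, as the log2 ratio of the mean TPM of w without a pseudocount was 3.94. The pseudocount lowers it further by construction, as w is low in the wild-type-labelled libraries. The count of pigment genes past the thresholds, 1, became 3 with limma on log2(TPM + 0.1), where st and ry joined w, 2 without a fold change threshold (w and ry), and 1 to 2 when each library was left out, where Pu joined without replicate 1 labelled crol-KO. The count of other pigment genes called, 0, became 4 with limma on log2(TPM + 1), filtered or not, 5 on log2(TPM + 0.1), 7 without a fold change threshold, and 0 to 1 when each library was left out (KFase without replicate 3 labelled wild-type, g without replicate 1 labelled crol-KO). Over all genes, 3301 were called with limma on log2(TPM + 0.1), 4112 without a fold change threshold and 1291 to 1978 when each library was left out. For the other 7 tested genes, 91 of 111 values moved by less than the spread between replicates. The sign of st and ry held in all alternatives run, while bw, v, cn, pr and Pu each changed sign in at least 1. Deviations from the group means had correlations of 0.0035, -0.29 and -0.052 between same-numbered libraries, against -0.26 to 0.32 between libraries of unlike number. These values cannot show whether same-numbered libraries share more than a number. With the replicate block, 1491 genes were called, 682 higher and 809 lower, the same pigment gene (w, 4.63) passed the thresholds, and bw was -0.14. Depth limits cn and se, with at most 25 and 10 counts per library.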

Other observations

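Among the relatives of w, st and bw in subfamily G of the ABC transporters, 1 of 13 tested was called by edgeR and 2 by DESeq2, against 13.6% of all tested genes in edgeR, and 3 had an edgeR adjusted p under 0.05. The log2 fold change was negative in 12 of the 13, against 6663 of all 12434 tested genes. It ran from -1.22 to 0.11 with a median of -0.34, against -0.052 over all tested genes. The mean transcript lengths of the 13 ran from 2038 to 4525 bases, and these values are before the trend over transcript length was removed. The part of length in this shift was not tested. The called gene, CG9664, fell from 31.1 to 14.2 mean CPM (log2 fold change -1.13, SE 0.177, edgeR adjusted p = 0.0031). E23, an ecdysone-induced member named after its values were seen, had a log2 fold change of -1.22 (edgeR adjusted p = 0.057). The most abundant member, CG3164, had 94.3 and 52.8 mean TPM and a log2 fold change of -0.17 (edgeR adjusted p = 0.30). None of the 13 had the direction and size of w.

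Of 4 enzymes that use tetrahydrobiopterin, 0 were called by edgeR or DESeq2, against 13.6% of all tested genes in edgeR. At an unadjusted p under 0.05 in edgeR there were 2. The most abundant, Hn, phenylalanine hydroxylase, had 109 and 64.8 mean TPM and a log2 fold change of -0.097 (edgeR adjusted p = 0.62). Of 8 tested markers of the eye disc, 0 were called by edgeR or DESeq2, against 13.6% of all tested genes in edgeR. At an unadjusted p under 0.05 in edgeR there was 1. The 8 eye disc markers summed to between 9.03 and 16.3 TPM in the wild-type-labelled libraries, against between 5.73 and 6.58 in the crol-KO-labelled ones. Most genes were lower in TPM in the crol-KO-labelled libraries, and the median edgeR log2 fold change of these markers was -0.23. Of 7 tested markers of the adult photoreceptor 3 were called, 1 higher and 2 lower, against 13.6% of all tested genes. Of 6 markers of the late larval fat body 3 were called, all lower, against the same share. The other 3 had positive log2 fold changes, Lsp1beta (0.82, edgeR adjusted p = 0.027), Lsp2 (0.28) and Lsp1gamma (0.19), so this list was mixed in direction.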
